A study of Mus musculus with 9 samples.

Results

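The genes described here are 34 mouse genes whose products remove superoxide and peroxides, keep glutathione and thioredoxin reduced, or couple glutathione to other molecules. They were taken as a list of symbols, by what their products do, with earlier results of these data known. All 34 were matched to an Ensembl row among the 55416 rows of the gene count table. The tissue was interscapular brown fat of C57BL/6J mice that expressed Cas9, given as 8 to 10 weeks of age. A virus of the AAV8 serotype, at 1e12 vg/mL, was injected into the fat with a guide RNA, and the tissue was taken after 14 days at 22 °C. The labels list 5 samples with a control guide and 4 with a guide against Ucp1, the gene of the uncoupling protein by which brown adipocytes make heat. They do not name the promoter or cell type that drives Cas9.

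The count table has 9 columns, one library each, named by a number and the tissue. The number of columns whose number occurs in a label is 0 of 9, so no library could be placed under a guide and no comparison between guides was made. Libraries are called A to I below, in rising order of the numbers in their column names, an order with no meaning for the design. Each value is given by library or as the lowest, median and highest of the 9. No mean, SD of a group or test between groups is given.

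Oxygen is reduced to superoxide as a side reaction of the respiratory chain, and superoxide dismutases turn it into hydrogen peroxide. Catalase, the glutathione peroxidases and the peroxiredoxins then remove the peroxide. Catalase splits it, whereas the glutathione peroxidases and the peroxiredoxins use electrons that come from NADPH through glutathione reductase or thioredoxin reductase. Many genes of these systems are known targets of the transcription factor NRF2, encoded by Nfe2l2 and held in check by KEAP1. Brown adipocytes are dense in mitochondria, and their NADPH also feeds fatty acid synthesis.

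NRF2 binds a DNA element whose core is TGACNNNGC, where N is any base, and this core can overlap the site of the AP-1 factors. Promoter windows from RefSeq (build GRCm38.p6, 250 bases before to 50 after each start) were found for 27 of the 34 genes. There was no entry for Gclc, Gsr, Gsta4, Hmox1, Nnt, Prdx6 and Sod3. The core, on either strand, was present for 8 of the 27 genes, against 14.0% of all 27025 genes in that table (12.4% of its 32851 windows). The 8 were Sod1, Prdx1, Srxn1, Txnrd1, Gclm, Gsta3, Mgst1 and G6pdx. The match of Srxn1, which ranged widely over the libraries, lies after the start, in a stretch of 47 bases, and is not shown. Of the other genes that ranged widely, Gclm and Gsta3 had a match. Gpx3 had none, nor had Nqo1, which is often used as a readout of NRF2, and Gsr and Hmox1 had no entry. Stretches of 59 bases are shown for Gclm and Gsta3, and for Prdx1, Txnrd1 and G6pdx, which are textbook NRF2 targets. They read 5′ to 3′ along the gene's strand, and capitals mark the match, which on the opposite strand reads GCNNNGTCA.
Gclm (chr3:122245398-122245456, plus strand): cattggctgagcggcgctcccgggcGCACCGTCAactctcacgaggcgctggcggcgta
Gsta3 (chr1:21240439-21240497, plus strand): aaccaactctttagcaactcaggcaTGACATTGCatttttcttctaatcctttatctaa
Prdx1 (chr4:116685441-116685499, plus strand): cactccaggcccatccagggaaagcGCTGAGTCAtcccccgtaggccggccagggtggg
Txnrd1 (chr10:82859089-82859147, plus strand): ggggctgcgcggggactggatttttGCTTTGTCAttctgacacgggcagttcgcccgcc
G6pdx (chrX:74428904-74428962, minus strand): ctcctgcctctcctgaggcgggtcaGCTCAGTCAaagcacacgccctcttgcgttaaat
A match of these letters is a description of the window and not evidence of binding.

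The libraries held 15460800 to 17909500 counts (median 17100400). Levels are given as CPM, the count divided by the library's total and scaled to 1e6. Brown adipocyte markers were found in every library, at very different levels. By median they ran from 38.7 CPM for Prdm16 to 4181 CPM for Fabp4. Cidea ranged from 1265 to 1749 CPM and Fabp4 from 3364 to 5070 CPM. Others were lower or less even: Elovl3 ranged from 151 to 828 CPM, Ppargc1a from 46.7 to 392 CPM and Ucp1 from 396 to 4620 CPM. Skeletal muscle markers were also present and uneven, with a summed level of 252 CPM in library C and 4791 CPM in library F. Transcripts of the mitochondrial genome took 22.3% of the counts in library A and 33.9% in library F, which moves every nuclear gene's CPM. A scaling that leaves out those transcripts and Ucp1 raised the values by 0.37 to 0.61 on the log2 scale, depending on the library.

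The 34 genes together took 0.762% of the counts in library D and 1.05% in library C, with a median of 0.895%. The median gene of the list stood at 86.5 CPM, compared with 15.6 CPM for the median of 12260 genes with a mean CPM of at least 1. Of the 34 genes, 17 had a median above 100 CPM, 12 lay between 10 and 100 CPM, and 5 were below 10 CPM. Nnt was the 1 gene of the list below the mean of 1 CPM, and the counts below refer to the other 33. Because long transcripts give more counts, levels were also divided by the exon length of each gene in GENCODE M21 (CPM per kilobase). Gpx3 led with a median of 1144 CPM per kilobase, before Gpx4 with 527 and Cat with 353 CPM per kilobase.

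**Figure D1:**
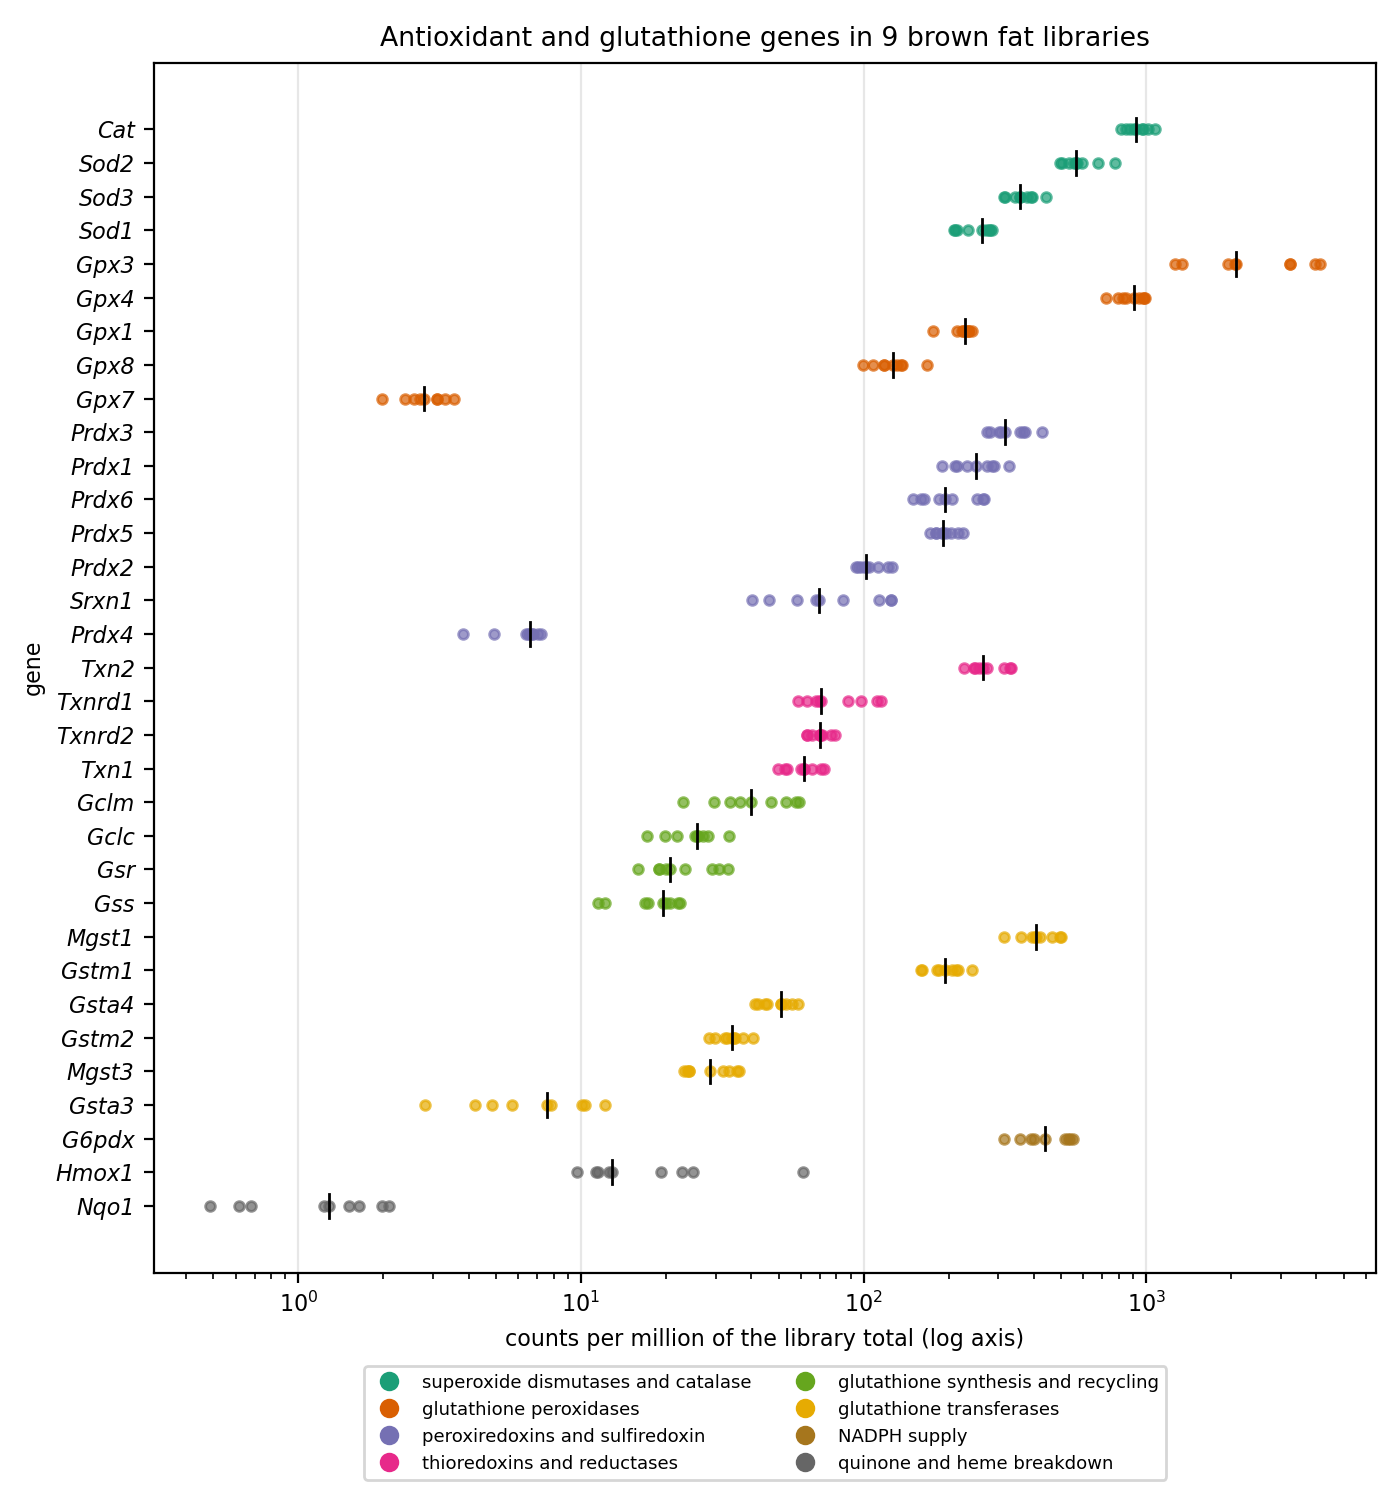
Level of 33 of the 34 genes (Nnt, with almost no counts, is not drawn) in 9 libraries, as CPM on a log axis. Each point is a library, the black tick is the median, and colours mark families. Gpx3 reaches from 1267 to 4138 CPM, whereas Cat stays between 812 and 1077 CPM.

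By family, the glutathione peroxidases took the largest part of the 34 genes' counts in each of the 9 libraries, between 32.2% and 52.1% (median 42.0%). The superoxide dismutases with catalase followed with a median of 24.5% (20.6% to 27.9%). Peroxiredoxins with sulfiredoxin held 13.3%, the glutathione transferases 8.10%, and the thioredoxins with their reductases 5.43% in the median library. The 4 genes of glutathione synthesis and recycling held 1.17%, and Hmox1 with Nqo1 0.186%. Per kilobase, the median share of the glutathione peroxidases was 53.7% and that of the dismutases with catalase 14.5%. The order of these 2 families was the same on both scales.

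**Figure D2:**
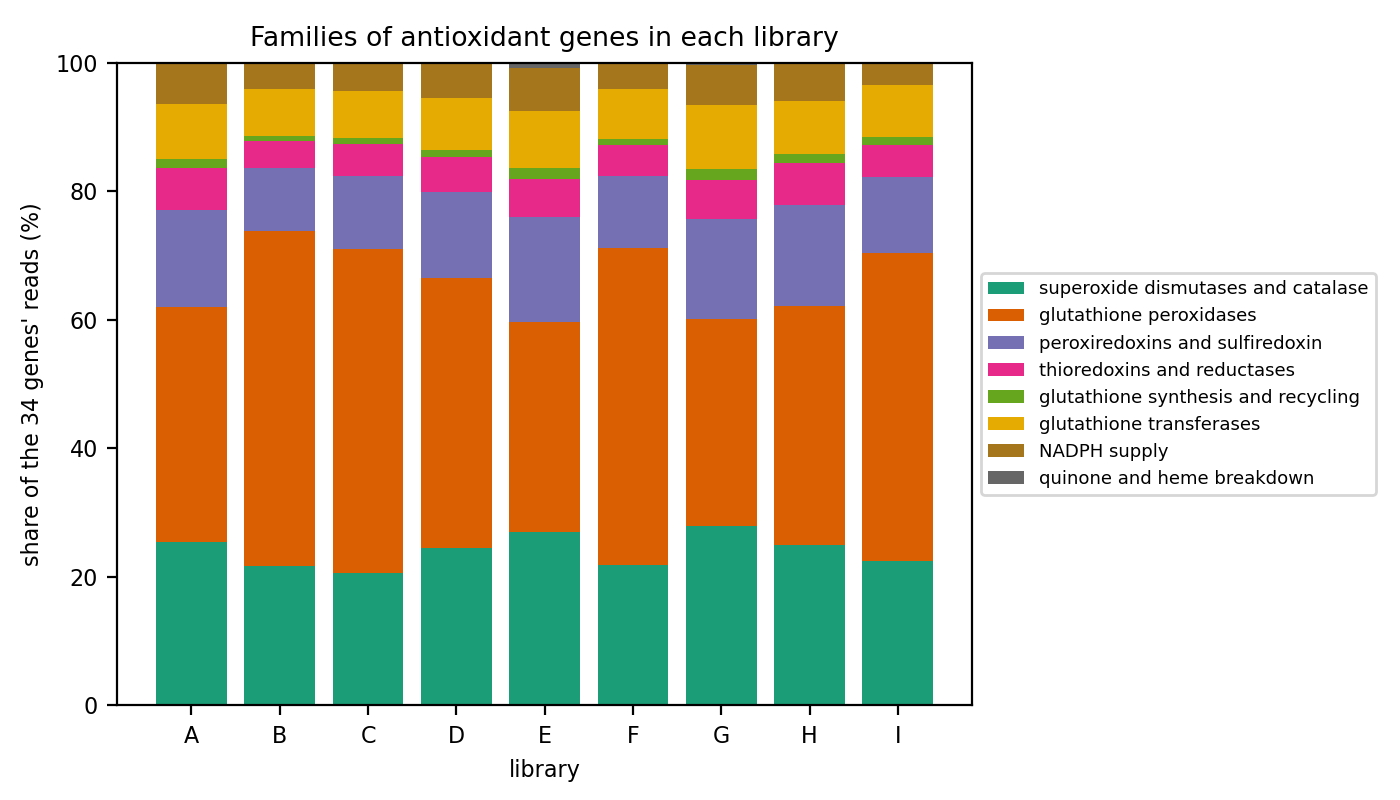
Share of the 34 genes' summed CPM that each of 8 families took, in percent, for each library. The glutathione peroxidases are the widest band in all 9 libraries, at 52.1% where widest and 32.2% where narrowest.

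Superoxide removal showed little range. Sod2, the manganese enzyme of the mitochondrial matrix, lay between 496 and 776 CPM with a median of 564 CPM, and its highest value was in library H. Sod1, the copper-zinc enzyme of the cytosol, ranged from 209 to 286 CPM, and Sod3, the secreted form, from 313 to 441 CPM. Catalase, the peroxide-splitting enzyme of peroxisomes, was the most abundant of the 4 per kilobase. Its Cat transcript (ENSMUSG00000027187) stood at 971 CPM in library A, 966 in B, 909 in C, 812 in D, 1013 in E, 851 in F, 1077 in G, 921 in H and 874 in I. The highest Cat value was 1.33 times the lowest.

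The glutathione peroxidases were dominated by Gpx3, the secreted plasma enzyme, which made up 47.9% to 80.2% of the family's counts in a library (median 64.8%). Gpx3 (ENSMUSG00000018339) was at 1944 CPM in library A, 4138 in B, 3968 in C, 2075 in D, 1336 in E, 3221 in F, 1267 in G, 2059 in H and 3225 in I. Libraries B and C were highest, I and F came next, and G and E were lowest. The highest value was 3.27 times the lowest, and 3.65 times without the mitochondrial transcripts and Ucp1 in the total. The SD of log2(CPM + 1) of Gpx3 was 0.64, above that of 97.3% of the 12260 genes.

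The other glutathione peroxidases were steadier. Gpx4, which reduces lipid hydroperoxides in membranes, ranged from 723 to 992 CPM, a ratio of 1.37. Gpx1, the general cytosolic and mitochondrial enzyme, lay between 214 and 243 CPM in 8 libraries and at 176 CPM in library B. Gpx8, found in the endoplasmic reticulum, had a median of 127 CPM and its highest value, 168 CPM, in library G. Gpx7, a related protein of the same compartment, was rare, with 35 to 55 counts at its lowest and highest level. Its 1.97 CPM in library H (95% exact Poisson interval 1.37 to 2.74) and 3.56 CPM in library F (2.68 to 4.63) have intervals that overlap. Gpx7 was the 1 gene of the 33 whose counts over the libraries did not differ beyond counting noise (chi-square test with 8 degrees of freedom, Benjamini-Hochberg adjusted p = 0.182). The other 32 passed that test, as did 91.5% of all genes tested, so passing it does not set these genes apart.

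Peroxiredoxins reduce peroxides through a cysteine that thioredoxin recycles. Prdx3, the mitochondrial form, was the most abundant of them per kilobase, with 215 CPM per kilobase, and made up 26.9% to 29.8% of the counts of the peroxiredoxins and sulfiredoxin in every library. Prdx3 (ENSMUSG00000024997) gave 372 CPM in library A, 272 in B, 317 in C, 303 in D, 357 in E, 280.3 in F, 366 in G, 427 in H and 307 in I. Library H was highest and B lowest, with a ratio of 1.57. Prdx1, a cytosolic form, ranged from 189 to 327 CPM with the same highest and lowest libraries. Prdx6, which uses glutathione in place of thioredoxin, ranged from 150.0 to 266 CPM. Prdx2 and Prdx5 varied less, with ratios of 1.34 and 1.31. Prdx4, the form of the endoplasmic reticulum, had a median of only 6.58 CPM.

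Srxn1 encodes sulfiredoxin, which repairs over-oxidised peroxiredoxins, and it had a far wider range than its substrates. Srxn1 (ENSMUSG00000032802) was at 113 CPM in library A, 46.2 in B, 58.2 in C, 69.4 in D, 125 in E, 40.3 in F, 125 in G, 84.6 in H and 67.8 in I. Libraries E, G and A were highest, and the next was H. The highest value was 3.11 times the lowest, and 2.78 times without the mitochondrial transcripts and Ucp1 in the total.

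In the thioredoxin system, Txn2, the mitochondrial thioredoxin, had the highest level per kilobase with 63.1 CPM per kilobase, close to 58.3 for the cytosolic Txn1. Txn2 (ENSMUSG00000005354) stood at 330.5 CPM in library A, 246 in B, 315 in C, 226 in D, 247 in E, 266 in F, 255 in G, 333 in H and 273 in I. Libraries H, A and C were highest and D lowest. Without the mitochondrial transcripts and Ucp1 in the total, C was highest and E lowest. The reductases differed in range: Txnrd1, the cytosolic enzyme, went from 58.6 CPM in library F to 115 CPM in library H, a ratio of 1.96. Txnrd2, the mitochondrial enzyme, stayed between 63.1 and 79.2 CPM, which at 1.25 was the smallest ratio among the 33 genes.

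Glutathione is made by glutamate-cysteine ligase (catalytic subunit Gclc, modifier Gclm) and glutathione synthase (Gss), and is reduced again by glutathione reductase (Gsr). Per kilobase, their median levels ran from 3.31 CPM for Gss to 7.51 CPM for Gsr, with 6.34 for Gclm. Gclm (ENSMUSG00000028124) was at 53.0 CPM in library A, 29.6 in B, 33.7 in C, 36.7 in D, 59.2 in E, 22.9 in F, 57.5 in G, 46.9 in H and 39.9 in I. Libraries E, G and A were highest and library F lowest, with a ratio of 2.58. Gsr (ENSMUSG00000031584) was at 29.1 CPM in library A, 16.0 in B, 19.9 in C, 18.9 in D, 30.8 in E, 18.8 in F, 33.1 in G, 23.3 in H and 20.7 in I. Its 3 highest libraries were G, E and A. Its ratio of 2.07 was 1.86 without the mitochondrial transcripts and Ucp1 in the total. Gclc ranged from 17.1 to 33.3 CPM and Gss from 11.5 to 22.4 CPM, and both were highest over lowest by less than 2.

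Among the transferases, Mgst1, a membrane-bound enzyme with peroxidase activity, had the highest level, 202 CPM per kilobase. Mgst1 (ENSMUSG00000008540) was at 496 CPM in library A, 406 in B, 421 in C, 315 in D, 403 in E, 360.4 in F, 498 in G, 465 in H and 393 in I. Gstm1, a cytosolic transferase, came next with 132 CPM per kilobase, and ranged from 160.3 to 242 CPM. Gstm2, Gsta4 and Mgst3 had medians of 34.2, 50.9 and 28.6 CPM. Gsta3 was rare and uneven (ENSMUSG00000025934), with 5.70 CPM in library A, 4.85 in B, 10.3 in C, 2.81 in D, 12.1 in E, 4.20 in F, 10.0 in G, 7.82 in H and 7.58 in I. Its lowest and highest values rest on 48 and 217 counts, with 95% exact Poisson intervals of 2.07 to 3.72 and 10.6 to 13.8 CPM that do not overlap. Gstm1 and Gstm2 belong to a cluster of similar genes, and Gsta3 and Gsta4 to another family of related genes. How reads that match several copies were counted is not given in the sources used here.

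NADPH for these systems was represented by G6pdx and Nnt. G6pdx encodes glucose-6-phosphate dehydrogenase, the entry to the pentose phosphate pathway. It was at 549.7 CPM in library A, 390.5 in B, 437 in C, 402 in D, 539 in E, 357 in F, 516 in G, 529 in H and 315 in I. Libraries A, E, H and G were highest and the other 5 were at most 437 CPM, with a ratio of 1.75 from highest to lowest.

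Nnt encodes the transhydrogenase of the inner mitochondrial membrane that makes NADPH from the proton gradient, and C57BL/6J mice are known to carry a deletion in it. The Nnt row (ENSMUSG00000025453) held 11 counts over all libraries: 3 in library B, 2 in D, 4 in E, 2 in I and 0 in the other 5. A count of 0 allows up to 3 counts, or 0.169 to 0.194 CPM in these 5 libraries. The table also has another row with the same symbol (ENSMUSG00000116207), which held 0 counts in all 9 libraries. In GENCODE M21 these 2 genes overlap on the same strand, and 47.45% of the exon length of the first is shared with the other. Some counting modes drop reads that fall in 2 genes, and the mode is not given, so the counts bear mainly on the 52.55% of its exon length that is not shared. Counts per gene do not show which exons are present.

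Hmox1, the inducible heme oxygenase, had the widest range of the 33 genes. It (ENSMUSG00000005413) was at 19.1 CPM in library A, 11.3 in B, 22.8 in C, 12.6 in D, 60.9 in E, 12.9 in F, 24.9 in G, 11.5 in H and 9.70 in I. Library E stood above all others, and the ratio of 6.28 fell to 2.56 without it. Nqo1, the quinone reductase often used as a readout of NRF2, was rare (ENSMUSG00000003849). It stood at 2.09 CPM in library A, 1.97 in B, 0.681 in C, 1.64 in D, 1.28 in E, 1.23 in F, 1.51 in G, 0.619 in H and 0.485 in I. The lowest and highest values are 8 and 37 counts (95% exact Poisson intervals 0.209 to 0.956 and 1.47 to 2.88 CPM). Of the 3 libraries highest for Srxn1, Gclm and Gsr, A was also highest for Nqo1 in CPM, and E and G were in the middle of its range. The Nqo1 counts were 37 in A and 33 in B, and B was highest without the mitochondrial transcripts and Ucp1 in the total.

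**Figure D3:**
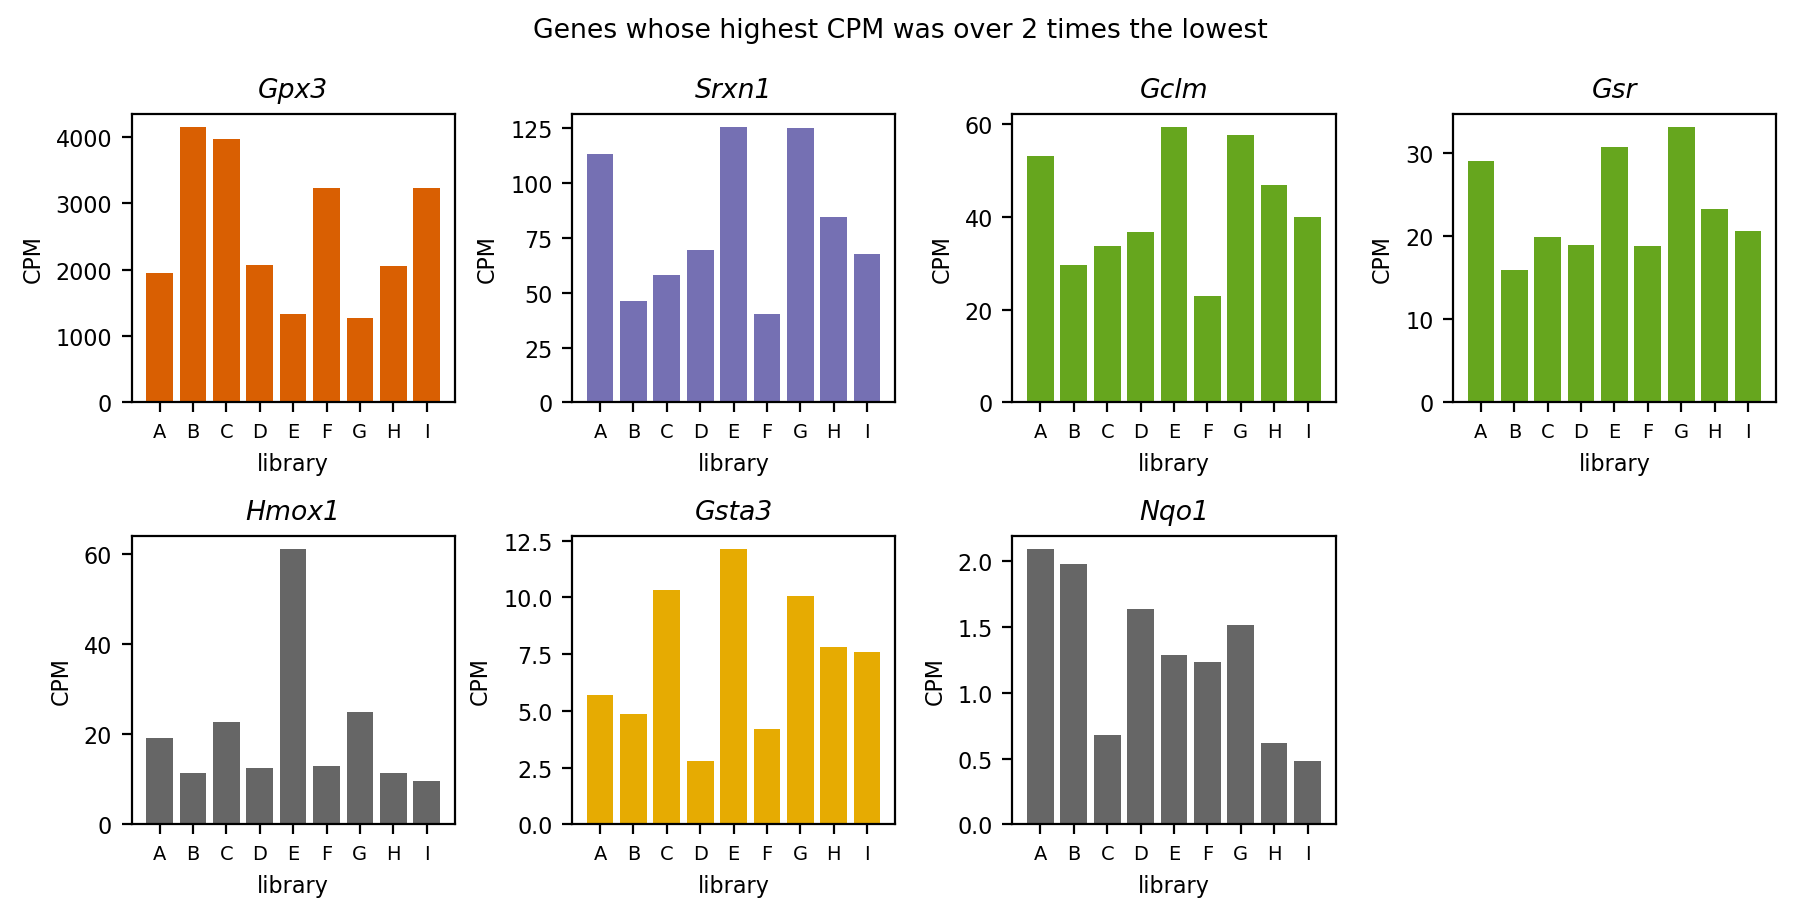
CPM in each library for the 7 genes whose highest value was over 2 times the lowest, with linear axes from 0 that differ between panels. Srxn1, Gclm and Gsr are each highest in libraries A, E and G, Gpx3 is highest in B and C, and Hmox1 reaches 60.9 CPM in E.

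In all, 7 of the 33 genes had a highest CPM over 2 times the lowest: Gpx3, Srxn1, Gclm, Gsr, Gsta3, Nqo1 and Hmox1. Among all genes tested the share was 32.3%. The median ratio was 1.58 for the 33 genes and 1.70 for all genes. The median SD of log2(CPM + 1) was 0.21 for the 33 genes and 0.23 for all, and 15 of the 33 lay above the median of all genes. Among genes with a mean CPM of at least 10, it was 0.21 for 29 genes of the list and 0.20 for all 7513. Without the mitochondrial transcripts and Ucp1 in the total, the count was 8 of 33 against 33.9% of all genes. Gsr then left the set, and the rare genes Gpx7 and Prdx4 entered it at 2.07 and 2.11.

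**Figure D4:**
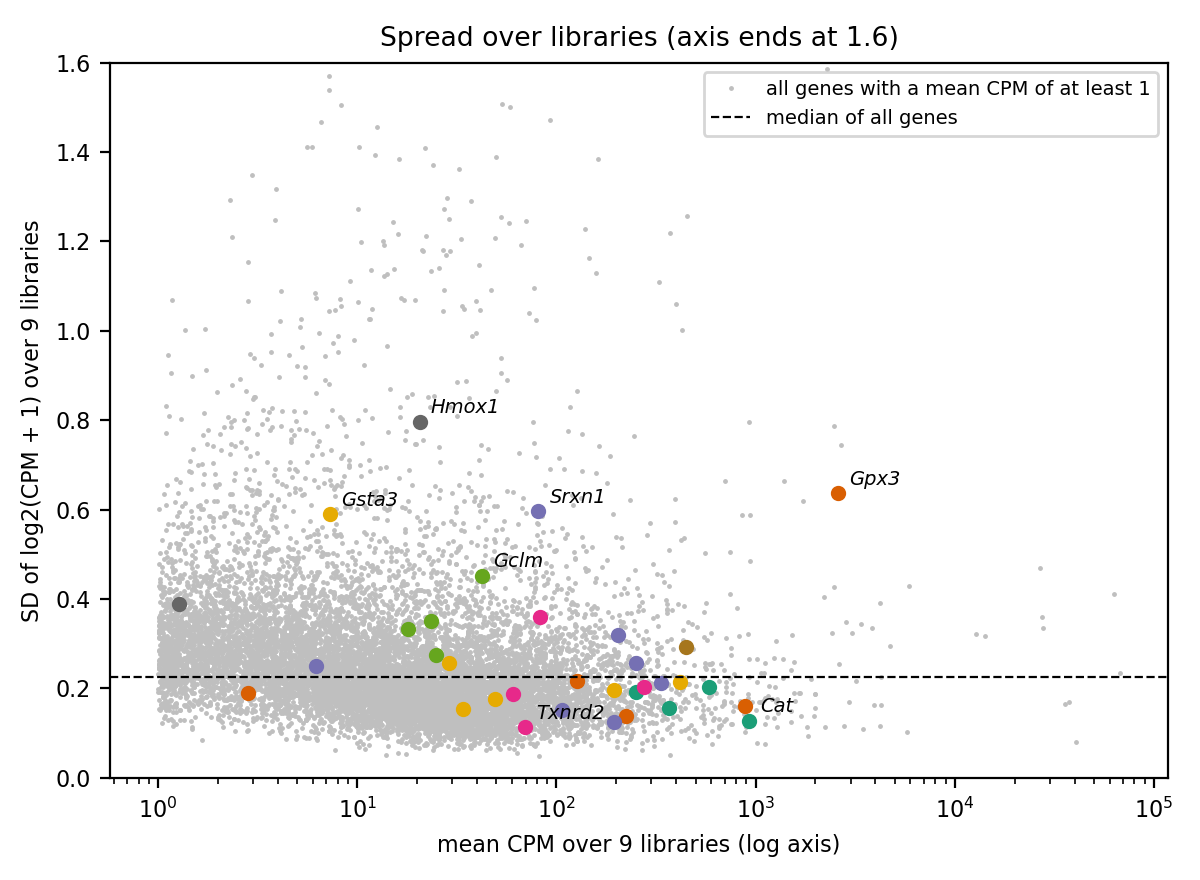
SD of log2(CPM + 1) over the 9 libraries against mean CPM on a log axis, for 12260 genes in grey and the 33 genes in family colours (3 grey genes lie above the axis). Hmox1 at 0.80, Gpx3 at 0.64, Srxn1 at 0.60 and Gsta3 at 0.59 lie above the dashed median of 0.23, and Cat and Txnrd2 lie below it.

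Library H held the highest value for 9 of the 33 genes, and 16.0% of all genes had their highest value there. Library D held the lowest value for 9 of the 33 genes and the highest for 0. In all genes tested, 22.1% were lowest and 3.10% highest in library D. Library B was lowest for 7 of the 33 genes, among them Gpx1, Gpx4, Sod1, Prdx1 and Prdx3, and 7.94% of all genes were lowest there. The same library was highest for 2 of the 33 genes, Gpx3 and Sod3, and for 14.1% of all genes. Without the mitochondrial transcripts and Ucp1 in the total, H was highest for 8 of the 33 genes, D lowest for 7 and B lowest for 5. The shares of all genes on that scale were 9.96% highest in H, 13.5% lowest in D and 4.76% lowest in B.

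The uneven skeletal muscle and macrophage content of the libraries was set beside the genes by correlation over the 9 libraries, which pool both guides. With the summed muscle markers, 0 of the 33 genes passed (exact permutation test of Pearson's r on log2(CPM + 1), two-sided, adjusted over all 12260 genes), and 0 had an unadjusted p under 0.05. In all genes tested, 0.767% passed, or 94 genes, and 539 had an unadjusted p under 0.05. The r values of the 33 genes lay between -0.60 for Prdx5 and 0.37, with a median of -0.29 against -0.01 for all genes. For Prdx5, Pearson's r was -0.60 and Spearman's rho -0.55, with exact permutation p of 0.088 and 0.133. Its adjusted p was 0.9997 for r, and r was -0.49 without libraries C and F, the farthest from the median. By Spearman's rho, 1 of the 33 genes and 546 of all 12260 had an unadjusted p under 0.05. The 1 gene was Txnrd2 (rho -0.73, exact permutation p = 0.0311, adjusted p = 0.852). Its r was -0.53, and -0.87 without libraries C and F.

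The summed macrophage markers ranged from 54.1 CPM in library D to 131 CPM in library H. Library H stood apart: the largest gap on the log2 scale was 0.545 of the range, with 8 libraries below it and 1 above. A pooled correlation was refused only where a gap over 0.5 of the range left at least 2 libraries on each side. With these markers, 0 of the 33 genes passed and 0% of all genes did. At an unadjusted p under 0.05 these numbers were 0 of 33 and 523 of 12260 by Pearson's r, and 1 of 33 and 342 of 12260 by Spearman's rho. The 1 gene was Nqo1, with r -0.61 and rho -0.77 (exact permutation p of 0.0665 and 0.0214, adjusted p of 0.9995 for r and 1 for rho). Without libraries H and D its r was -0.49. The highest r was that of Sod2, 0.55, which became -0.79 without these libraries and so rested on them. With 9 libraries these results do not show that the genes are free of a relation with either cell type. In bulk tissue, fewer cells of a type and less RNA per cell cannot be told apart. A correlation with Ucp1 was planned and is not given, because the Ucp1 levels met the condition under which no pooled correlation was to be computed, and they are listed at the end.

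Of 69 further genes of these pathways, 59 had a mean CPM of at least 1, and 19 of the 59 had a highest value over 2 times the lowest, against 32.3% of all genes. Nfe2l2 itself ranged from 66.9 to 98.0 CPM, and Keap1 from 45.2 to 63.3 CPM, ratios of 1.46 and 1.40. Other genes of the pentose phosphate pathway and of NADPH supply differed widely in level. Tkt, a pentose phosphate enzyme, ranged from 2225 to 3927 CPM. Me1, the cytosolic malic enzyme, ranged from 425 to 1211.7 CPM, and Pgd, the enzyme after G6PDX, from 288 to 751 CPM. The medians of Idh1, Idh2, Aldh1l1 and Mthfd1 were lower, at 211, 217, 93.4 and 27.1 CPM. Fth1, the ferritin heavy chain, lay between 1669 and 2231 CPM. Slc7a11, the cystine transporter, was below the mean of 1 CPM, with 52 counts in all.

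Among those 59 genes, the 5 with the largest ratios were Chac1, Osgin1, Gstp2, Slc3a2 and Sesn2. Chac1, which degrades glutathione and is a target of the integrated stress response, was at 12.8 CPM in library E and between 0.585 and 4.91 CPM in the other 8. Osgin1, an NRF2 target, was highest in libraries E, G and A with 12.5, 9.29 and 6.49 CPM, and was at most 3.83 CPM in the others. Slc3a2, the partner chain of the cystine transporter, had 249 CPM in library E, 171 in G and 122 in A, and at most 89.7 CPM elsewhere. Sesn2, a stress-induced sestrin, had 87.9 CPM in library E and 57.3 in G. Gstp2 rests on 6 counts at its lowest. Library E held the highest value for 16 of the 59 genes, and 11.8% of all genes tested were highest there.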

How the data were processed

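Total RNA of 9 brown fat samples was sequenced. The values deposited by the authors are raw counts, one row per Ensembl gene. The submitters' processing notes name FastQC, STAR, DESeq2 and the build GRCm39, without versions or roles. Which annotation, strand setting and counting mode were used is not stated. Symbols came from GENCODE M21 (GRCm38), which matched 52083 of 55416 rows. No row lacked a gene identifier.

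Columns carry the tissue's name and were used as 9 libraries of that tissue with no guide. The members and gene lists were chosen with earlier results of these data known. CPM is the count over the column sum. Genes with a mean CPM of at least 1 were tested, on log2(CPM + 1). Correlations used all 362880 orderings, with Benjamini-Hochberg adjustment and a threshold of 0.05, and were not pooled where the largest gap in the x measure exceeded 0.5 of its range with at least 2 libraries on each side. The chi-square test over libraries was added after the data were seen, and it compares reads of libraries, not conditions. Poisson intervals cover counting error only.

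Values were printed by library for the highest gene of each family by median CPM, any gene with a highest over lowest CPM above 2, and Nnt, and by ratio for the 5 further pathway genes. All 36 pairs of libraries differed beyond counting noise (chi-square over degrees of freedom of at least 10.9), so none was counted as a duplicate. The labels do not say whether samples came from separate animals, so p-values measure only the spread between these libraries. Marker lists were summed as 7 sets: endothelial markers ranged from 501 to 844 CPM, fibroblast from 139 to 332, erythroid from 237 to 458 and liver from 70.1 to 264. Brown adipocyte markers other than Ucp1 summed to 7045 to 10008 CPM. Scripts were checked on simulated data. Alternatives were edgeR 4.0.16 TMM and DESeq2 1.42.0 size factors, other filters and pseudocounts, and each library left out. Python 3.11.15, scipy 1.17.1 and R 4.3.3 were used.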

Additional observations from a re-analysis of the deposited data

Results flagged for a closer look

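Among the 33 genes, 8 families and 5 further pathway genes examined, 2 genes had 1 library far from the other 8, by Dixon's criterion for 9 values on log2(CPM + 1). Chance alone gives about 1 such case in 20, and 4.39% of all 12260 genes tested met the criterion, so 2 cases are near the background. Hmox1 was at 60.9 CPM in library E, with a gap of 0.497 of its range to the next library. Gpx1 was at 176 CPM in library B, with a gap of 0.605 of its range.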

How the results depend on the processing

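Leaving mitochondrial genome genes and Ucp1 out of the total raised the summed level of the 34 genes from 8952 to 12216 CPM, by construction. Per kilobase it was 4033. On that scale the family shares became 14.5% for dismutases and catalase, 53.7% for glutathione peroxidases, 3.65% for thioredoxins and reductases, 0.589% for glutathione synthesis, 10.6% for transferases and 3.76% for NADPH supply. The number of all genes correlated with muscle markers, 94, became 49 with a mean CPM of at least 10 (fewer genes tested), 44 by Spearman's rho, 0 without the 2 libraries farthest from the median, and 15 to 75 with 1 library left out. It was 15 without library I, 20 without F, 22 without C, 56 without G, 61 without A and 62 without B. Without D, E or H it was 75. The cause of these differences was not tested. The members correlated with muscle or macrophage markers numbered 0 under every alternative run. Of all genes, 0 passed in every macrophage run and in the muscle run without 2 libraries. Fewer libraries allow fewer orderings, which raises the smallest possible p. A member count of 0 in those runs therefore does not show stability. The number of genes with a highest over lowest ratio above 2 was 6 to 8 over the scalings and with 1 library left out, and without library E the ratio of Hmox1 was 2.56. TMM moved library D by 0.14 on the log2 scale. Of 294 recomputed values, 276 stayed within the libraries' spread or within 1.5 times. Some of these could not change: family shares do not depend on the scaling of a library. A highest over lowest ratio also stays the same when a library between the extremes is left out. No paired analysis was possible because no replicate number or guide is tied to a library. Depth limits Nqo1, Gpx7, Prdx4, Gsta3 and Nnt.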

Other observations

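The Ucp1 level was 459 CPM in library A, 3848 in B, 4620 in C, 2704 in D, 396 in E, 3652 in F, 606 in G, 445 in H and 3937 in I. These values form separate clusters: the largest gap on log2(CPM + 1) is 0.609 of the whole range, with 4 libraries below and 5 above it. No library was given a guide on that basis, and the libraries were not split by their measured Ucp1 level, so a relation between Ucp1 and the 34 genes was not tested.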
